A study of Mus musculus with 4 samples.

Results

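Sox4, Sox11 and Sox12 are the 3 genes of group C of the Sox family, and the acetylation of histone H3 at lysine 27 (H3K27ac) around them was described in mouse neural stem cells with and without Smchd1. The 3 were taken by name out of 21631 protein-coding genes on chromosomes 1 to 19 and X. Each window was the RefSeq gene body with 50 kb on both sides. Every peak that touched a window was a member, which gave 39 of 91557 peaks in deleted cells and 33 of 63613 in control cells. The deleted group was 1 culture titled Smchd1 del/del, transduced with the retrovirus MSCV-Cre-puro, given puromycin 24 h later and collected 7 days after transduction. The control group was 1 culture titled Smchd1 fl/fl, which its genotype field gives as del/fl, kept without transduction. Deletion, transduction and drug selection cannot be told apart here. All cells were female, came from Smchd1 del/fl E14.5 embryos (mid-gestation), and carried an Xist deltaA allele on a maternal X of 129 origin beside a Castaneus X. The strain field reads C57BL/6. Each ChIP had 1 whole-cell-extract (WCE) input. The antibody field of both ChIP libraries names H3K27me3, while their titles name H3K27ac. The genotype field of the control input reads del/del.

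H3K27ac marks active promoters and enhancers. SoxC proteins bind DNA through an HMG box, are encoded by single-exon genes and act largely redundantly. In the developing nervous system Sox4 and Sox11 are known for switching on pan-neuronal genes in precursors that leave the cell cycle, and for keeping such precursors alive. Sox12 is the weakest activator among them. A list peak is a stretch where ChIP tags exceeded the local input background, and its fold enrichment is that excess at the summit within 1 library.

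The start sites of the 3 genes lay in or beside stretches that the peaks left uncovered, so the bases before each start are shown. Each sequence is the 250 bases upstream of the RefSeq start site, 5′ to 3′ on the minus strand of GRCm38.p6 (the mm10 chromosomes), from RefSeq. All 3 members were found in that promoter table. Capitals mark CCAAT on either strand and, in Sox12, the octamer ATGCAAAT, the element that POU factors recognise.
Sox4, chr13:28953700-28953949: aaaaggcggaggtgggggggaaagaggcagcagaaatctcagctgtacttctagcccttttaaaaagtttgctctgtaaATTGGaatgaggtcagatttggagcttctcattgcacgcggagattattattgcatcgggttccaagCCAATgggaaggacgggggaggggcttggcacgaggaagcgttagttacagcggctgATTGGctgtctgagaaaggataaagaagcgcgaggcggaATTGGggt
Sox11, chr12:27342719-27342968: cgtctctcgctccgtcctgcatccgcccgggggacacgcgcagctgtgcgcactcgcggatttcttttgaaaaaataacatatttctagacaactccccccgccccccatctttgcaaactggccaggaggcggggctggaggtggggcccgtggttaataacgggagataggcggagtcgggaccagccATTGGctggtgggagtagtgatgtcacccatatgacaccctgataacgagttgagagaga
Sox12, chr2:152398047-152398296: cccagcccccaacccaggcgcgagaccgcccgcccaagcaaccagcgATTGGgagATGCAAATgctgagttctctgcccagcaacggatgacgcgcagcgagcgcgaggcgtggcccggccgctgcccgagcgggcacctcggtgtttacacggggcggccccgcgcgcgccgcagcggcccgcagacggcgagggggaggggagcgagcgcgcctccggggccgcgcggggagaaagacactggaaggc

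The CCAAT element, bound by the factor NF-Y, was found in all 3 sequences. Sox4 held 4 matches, with first bases 171, 104, 47 and 8 bases before the start, Sox11 held 1 at 60 bases and Sox12 held 1 at 203 bases. Of 32851 promoters of the same length, 33.8% held at least 1 such match. The octamer of Sox12 began 195 bases before the start, did not overlap its CCAAT match, and was held by 1.60% of promoters. The GC box GGGCGG was matched 2 times in Sox11, 3 times in Sox12 with 2 of them overlapping, and 0 times in Sox4, against 32.7% of promoters with a match. The other 4 motifs, all searched on both strands, had no match in the 3 promoter sequences. These were TATAAA (held by 12.4% of promoters), the Sox elements AACAAT (9.42%) and ACAAAG (16.5%), and the Rbpj element GTGGGAA (5.42%). GC content was 50.8% in Sox4, 58.0% in Sox11 and 74.4% in Sox12, with a median of 52.4% over all promoters. CpG numbers were 11, 17 and 35, against a median of 6. The 3 promoters thus ran from a base composition near the median to one with more CpGs than 97.0% of promoters.

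All 3 SoxC genes were acetylated in both cultures, and in each gene the most enriched peak began just inside the transcribed region. A peak within 1 kb of the gene body in both lists was also found at 58.0% of all protein-coding genes, while 6.02% had one among deleted peaks alone and 1.02% among control peaks alone. What set the 3 apart from a typical gene was the strength and spread of the mark over the body. This held least for Sox12 in control cells. Peaks covered 63.5% of the Sox4 body after deletion and 72.2% in control cells, 42.4% and 40.5% of the Sox11 body, and 46.0% and 21.6% of the Sox12 body. Over all protein-coding genes the median was 1.56% in deleted and 0.812% in control cells. Among 1654 genes of 4 to 9 kb with a peak at the gene in both lists, a set chosen after the values were seen, the medians were 15.1% and 12.1%. Sox4 exceeded 97.1% of that set in deleted and 99.1% in control cells, Sox11 91.1% and 94.6%, and Sox12 92.7% and 79.4%. There was 1 library per group, so differences between cultures have no replicate check and no test. Intervals are exact 95% Clopper-Pearson intervals or ratios from them and cover counting error only.

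**Figure D1:**
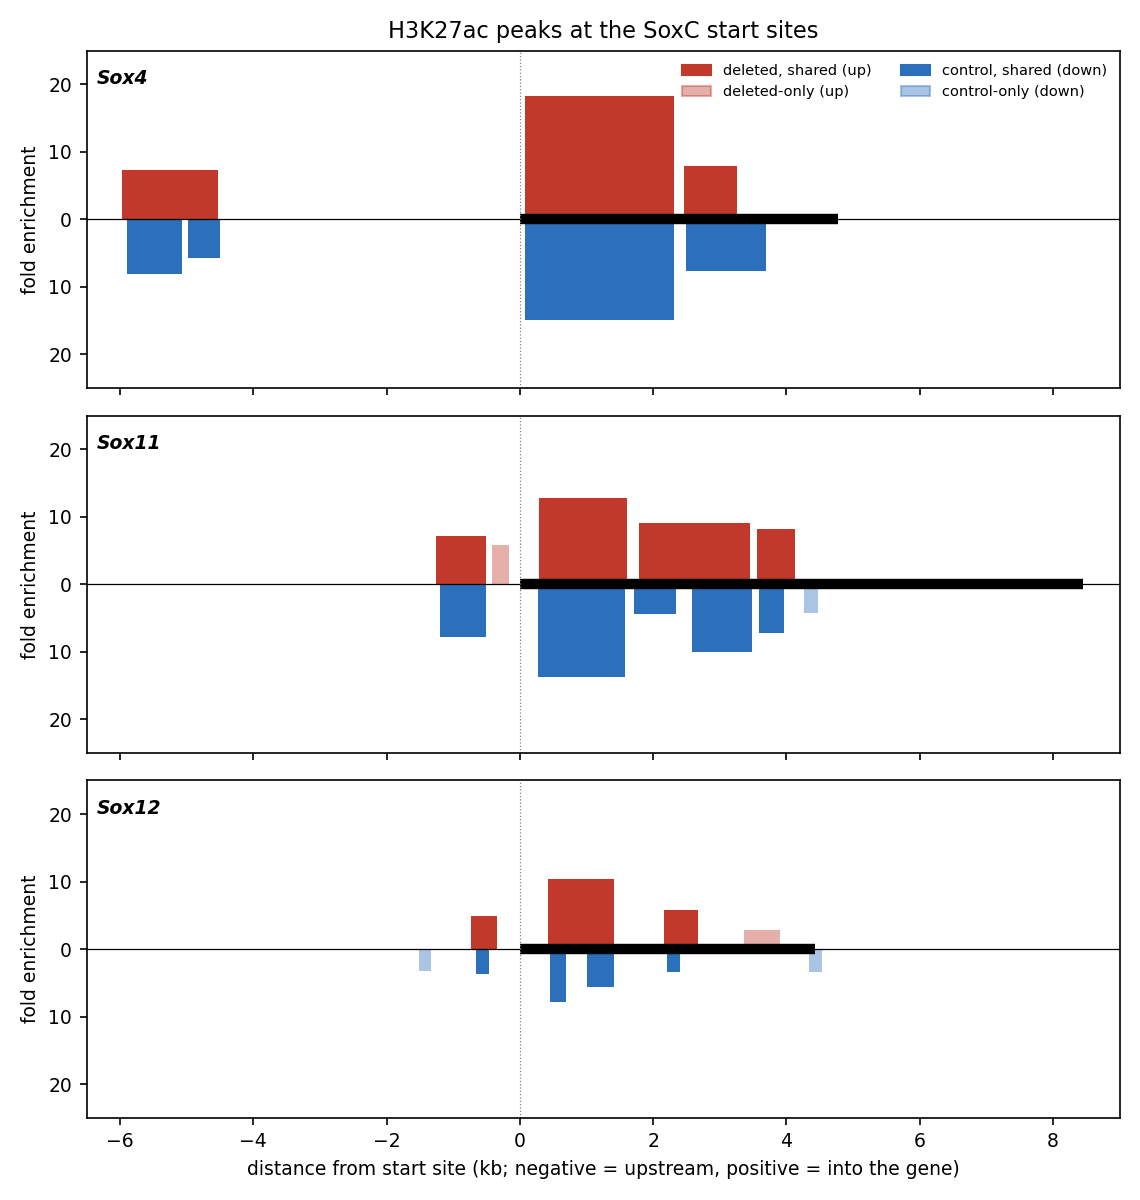
H3K27ac peaks near the start sites of Sox4, Sox11 and Sox12, with distance from the start site in kb on the x axis (gene body as a black bar) and fold enrichment on the y axis, deleted cells upward and control cells downward. Bars span the peaks, pale bars are peaks that overlap none of the other list, and the tallest bar of each gene lies downstream of the start in both lists.

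Sox4 carried the strongest SoxC peak. It spanned 2243 bases in the deleted culture (chr13:28951385-28953627) and 2248 bases in the control culture (chr13:28951382-28953629), with edges that differed by at most 3 bases. Fold enrichment was 18.3 after deletion and 14.9 in controls, above 99.9% and 99.7% of peaks of the same list. Pileup at the summit was 1.99 per 1000000 filtered ChIP tags after deletion and 1.73 in controls. The summit stood 993 bases inside the gene in deleted and 954 bases in control cells. A second body peak, 2.83 kb inside the gene in deleted and 2.94 kb in control cells, had 7.89 and 7.67. It was narrower in deleted cells, at 795 bases against 1206 bases in control cells.

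About 5 kb upstream of Sox4 a further strong block was present in both cultures. Deleted cells had 1 peak of 1436 bases there with a fold enrichment of 7.39, and control cells had 2 peaks of 820 and 472 bases with 8.07 and 5.65. The block lay inside the lncRNA gene Gm46405, which overlaps Sox4. Its near edge was 371 bases in deleted cells and 447 bases in control cells from the start site of Gm46405, which lies 214 bases from that of the divergent lncRNA gene Gm52067. The block can therefore not be assigned to Sox4 rather than to these lncRNA genes by position. Sox4 is the nearest protein-coding gene to every peak of its window. A weak peak 11.2 kb downstream of the start was also shared (2.69 in deleted and 3.43 in control cells).

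Sox11 was acetylated over the 5′ part of its long transcribed region and just upstream of it. Its most enriched peak (chr12:27341107-27342429 in deleted cells, 1323 bases, and 1309 bases in control cells) had a fold enrichment of 12.8 after deletion and 13.7 in controls. Pileup was 1.38 per 1000000 tags in deleted and 1.58 in control cells, so Sox11 had the lower deleted value on both scales, the reverse of Sox4. Farther into the gene, 3.16 kb and 3.70 kb from the start in deleted cells, peaks had 9.07 and 8.23. Their control counterparts had 10.1 at 3.21 kb and 7.26 at 3.76 kb, and control cells had a separate peak of 4.44 at 1.82 kb that overlapped the 1671-base deleted peak. The upstream peak, 0.932 kb before the start in deleted and 0.893 kb in control cells, had 7.17 and 7.80. Control cells also had a control-only peak 4.37 kb inside the gene (4.28), which was 133 bases from the nearest deleted peak.

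Between that upstream peak and the start of Sox11, deleted cells had a peak that control cells lacked (chr12:27342879-27343140, 262 bases, fold enrichment 5.88). This was the most enriched list-only peak of the SoxC windows, a list-only peak being one that shares no base with the other list. It was 86 bases from the nearest control peak and 89 bases from the next deleted peak, and its distance from a control peak is shorter than its own width. It overlapped the part of the Sox11 promoter farthest from the start and came to within 161 bases of the start. The 300-base promoter (250 bases before to 50 after the start) of Sox11 was thus overlapped in deleted but not in control cells. Those of Sox4 and Sox12 were overlapped in neither. Of start sites of protein-coding genes with a peak within 2 kb, 70.5% had their promoter overlapped by a deleted peak and 62.3% by a control peak, against 1 of 3 and 0 of 3 here. The uncovered stretch around the start was 449 bases in deleted and 783 bases in control cells at Sox11, and 755 and 912 bases at Sox12. At Sox4 the nearest peak edge was 72 bases inside the gene in deleted and 70 bases in control cells, while upstream the next edge was 4534 and 4507 bases away. The most enriched summit within 2 kb was downstream of the start at all 3 genes in both lists, as at 72.2% of start sites for deleted peaks and 72.2% for control peaks.

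Sox12 had the weakest mark of the 3, and its shared peaks at the gene were higher and wider in deleted cells. The most enriched peak at the gene (chr2:152396637-152397628 in deleted cells, 992 bases) had a fold enrichment of 10.4 in the deleted list. It overlapped 2 control peaks, of 240 and 416 bases, with 7.87 and 5.65. Pileup at the highest summit was 1.13 per 1000000 tags in deleted and 0.899 in control cells. A body peak 2.33 kb from the start in deleted cells had 5.88 and its control counterpart 3.43, with widths of 504 and 199 bases. An upstream peak 0.455 kb before the start had 4.87, against 3.63 in control cells, with widths of 394 and 193 bases. All 3 of these loci were higher in the deleted list. The control values of 3.43 and 3.63 were low in their list, at percentiles 24.3 and 33.4. Where 1 peak of each list overlapped over the genome, the deleted peak was wider in 67.6% of pairs and higher in 51.1%. Filtered ChIP depth was 1.28 times as large in the deleted library, and its part was not tested. Near its 3′ end each culture had a weak list-only peak, 3.66 kb from the start in deleted cells (2.85) and 4.41 kb in control cells (3.40), which lay 427 bases apart. A further control-only peak was found 1.396 kb before the start (3.23).

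The 50 kb window of Sox12 was shared with 4 protein-coding genes, Trib3, Nrsn2, Zcchc3 and 6820408C15Rik, whereas Sox4 and Sox11 had lncRNA genes only as neighbours. Of its peaks, 4 of 20 in deleted and 6 of 16 in control cells had Sox12 as the nearest protein-coding gene. The most enriched peak of the window lay over Zcchc3, with 14.3 over 3344 bases in deleted cells. Control cells had 3 peaks there, with 11.9, 10.5 and 5.04. The deleted peak ended at chr2:152415467, and 6820408C15Rik begins at chr2:152415587 on the strand opposite to Zcchc3. These peaks can therefore not be assigned to Zcchc3 alone by position. Downstream of Sox12 and beyond Nrsn2, a stretch inside the lncRNA gene Gm14164 held 4 deleted peaks, 30.7 to 40.5 kb from the Sox12 start and with fold enrichments of 3.00 to 4.20, and 0 control peaks. Farther on, 47.2 to 48.6 kb from the start, 3 peaks were common to both lists. In the whole Sox12 window 10 of 20 deleted peaks overlapped no control peak, near the 50.6% of all deleted peaks. The 4 peaks inside Gm14164 are among these 10, and the median fold enrichment of the deleted list was 3.53. Counts over the Sox12 window therefore describe a gene-dense stretch more than Sox12 itself.

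**Figure D2:**
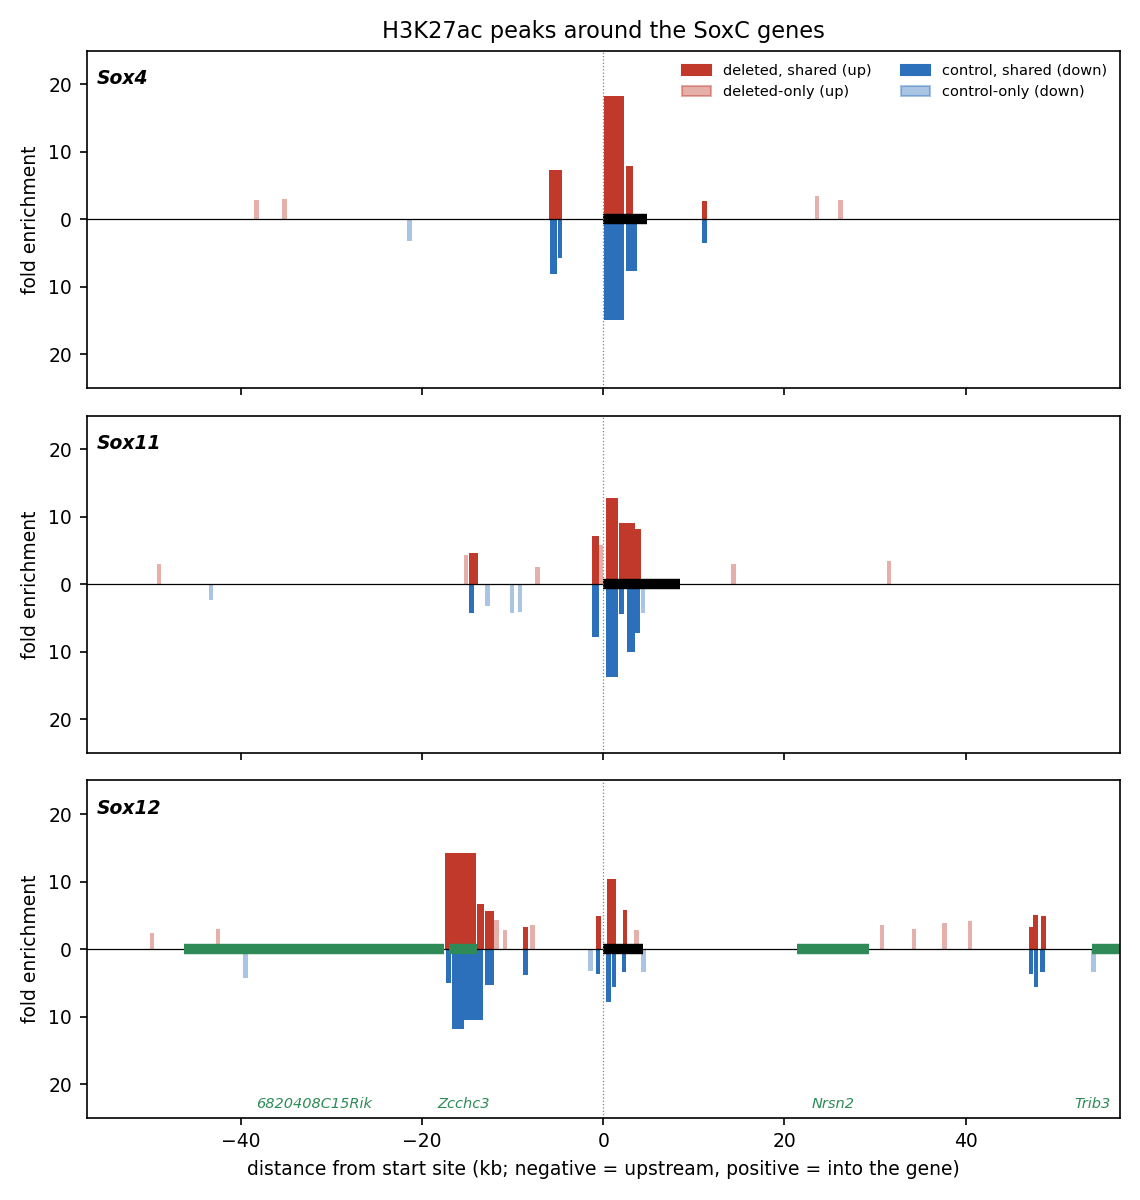
All H3K27ac peaks in the windows of Sox4, Sox11 and Sox12, with distance from the start site in kb on the x axis and fold enrichment on the y axis, deleted cells upward and control cells downward. Peaks narrower than 0.5 kb are drawn 0.5 kb wide, black bars are the SoxC genes, green bars are neighbouring protein-coding genes (lncRNA genes are not drawn), and the pale list-only peaks lie mostly away from the genes and are low.

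Peak numbers in the windows differed little between the cultures. The window of Sox4 had 8 peaks after deletion and 6 in controls, and the ratio was 1.33 (95% interval 0.406 to 4.66). Sox11 had 11 in each list, a ratio of 1.00 (0.393 to 2.54). Sox12 had 20 and 16, a ratio of 1.25 (0.615 to 2.58). In sum the ratio was 1.18 (0.724 to 1.94), an interval that includes both an equal number and the 1.44 of all peaks. The deleted number reached 1.5 times the control number at 0 of the 3 genes, against 33.3% of the 10647 coding-gene windows with at least 5 control peaks. The median ratio of those windows was 1.31, and Sox11 was above only 10.9% of them. Filtered ChIP depth was 54194233 tags after deletion and 42277672 in controls, a ratio of 1.28, and its part in these counts was not tested. Covered length was 5.72 kb in deleted and 5.27 kb in control cells at Sox4, 6.98 and 5.54 kb at Sox11, and 11.2 and 7.73 kb at Sox12. The summed covered length had a ratio of 1.29, against 1.48 for all peaks.

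Against other genes the windows stood out by peak strength more than by peak number. The highest fold enrichment of the Sox4 window exceeded that of 99.4% of coding-gene windows among deleted peaks and 97.8% among control peaks. For Sox11 it exceeded 90.8% and 96.0%, and for Sox12, where the Zcchc3 peak sets it, 95.7% and 89.8%. Taken within 1 kb of the gene, Sox12 was above 88.6% of protein-coding genes in deleted and 77.4% in control cells. Genes and windows without any peak entered these ranks as the lowest, which raises the percentages. Peak number exceeded that of 55.1% of windows in deleted and 56.4% in control cells at Sox4, 64.4% and 73.6% at Sox11, and 81.2% and 83.6% at Sox12. The median window had 6 deleted and 4 control peaks.

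**Figure D3:**
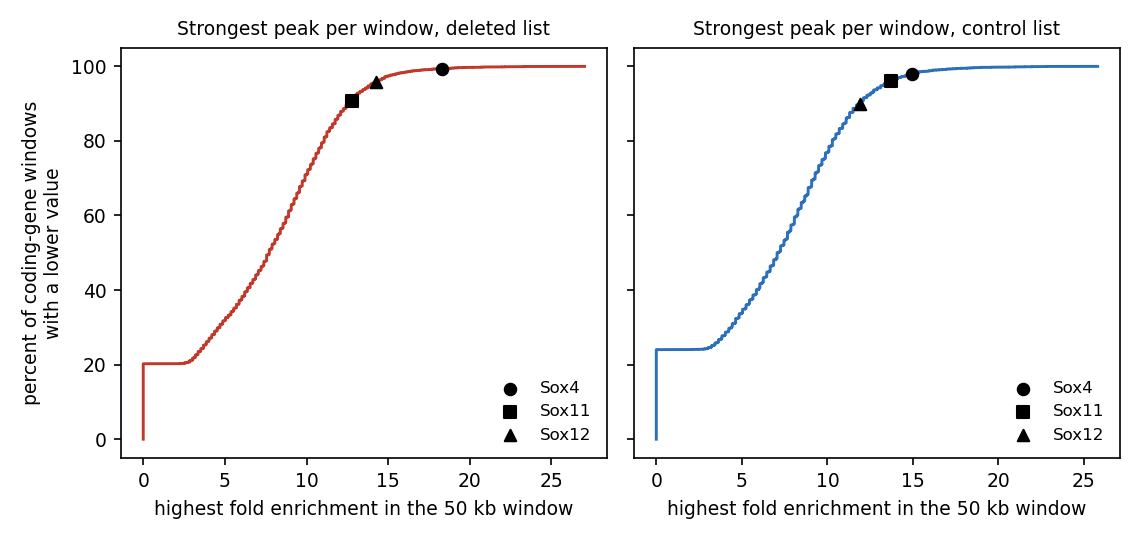
Percent of coding-gene windows (y axis) whose highest fold enrichment is lower than the value on the x axis, for the deleted list on the left and the control list on the right. Symbols mark Sox4, Sox11 and Sox12, which lie between 89.8% and 99.4%, with Sox4 the highest in both lists.

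Shared SoxC peaks were on the whole higher and wider than list-only ones, as over the genome. In the deleted list 20 of 39 SoxC peaks were deleted-only, or 51.3% (34.8 to 67.6), against 50.6% of all deleted peaks. In the control list 10 of 33 were control-only, or 30.3% (15.6 to 48.7), against 24.3% of all control peaks. Both shares are near the background of the lists. The median fold enrichment of list-only peaks was 3.02 after deletion and 3.41 in controls, while shared peaks had medians of 6.72 and 5.65. Over the genome these medians were 3.19 and 3.43 for list-only and 4.53 and 4.44 for shared peaks. Median widths were 242 and 197 bases for list-only peaks and 755 and 472 bases for shared ones, against 239 and 221 bases and 482 and 372 bases over the genome. Shared peaks reached down to 2.69 in deleted and 3.43 in control cells. Of peaks with a fold enrichment of at least 5, 1 of 14 deleted peaks (the one before Sox11) and 0 of 15 control peaks overlapped no peak of any height in the other list. Over the genome 4.17% of such deleted peaks and 1.28% of such control peaks did so, so these counts are near the background. The count of 0 of 15 allows a share of up to 20%, taken as 3 counts of 15. Of the 20 deleted-only peaks 5 ended less than 500 bases from a control peak, and of the 10 control-only peaks 2 ended that close to a deleted peak.

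The list-only peaks lay mainly away from the start sites, as did most peaks of the windows in both lists. Within 5 kb of the 3 starts, a limit chosen after the values were seen, 2 of 11 deleted peaks were deleted-only, or 18.2% (2.28 to 51.8), and 3 of 15 control peaks were control-only, or 20% (4.33 to 48.1). Around all coding start sites of the promoter table these shares were 32.4% and 11.4%. The limit cut through the shared block upstream of Sox4. Its deleted peak (5.23 kb) and a control peak (5.27 kb) counted as beyond, and its other control peak (4.83 kb) as within. Beyond 5 kb, 18 of 28 deleted peaks were deleted-only, or 64.3% (44.1 to 81.4), against 57.7% over the genome, and 7 of 18 control peaks were control-only, or 38.9% (17.3 to 64.3), against 30.6%. All 4 intervals include the share over the genome. The zones are unlike, since distance was taken here from the 3 SoxC starts and over the genome from any coding start. Peaks at the start of Zcchc3 thus counted here as beyond 5 kb.

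Beyond 5 kb from the starts, list-only peaks had fold enrichments of 2.38 to 4.37 in deleted and 2.38 to 4.24 in control cells. Of these, 5 of 18 deleted and 2 of 7 control peaks were above the median peak of their own list. Sox4 had 4 deleted-only peaks, a pair 23.6 and 26.2 kb downstream (3.53 and 2.85) and a pair 35.2 and 38.3 kb upstream (3.02 and 2.83), and 1 control-only peak 21.3 kb upstream (3.23). Each of these was over 12 kb from any peak of the other list. At Sox11, the lncRNA gene Gm30855 upstream held control-only peaks 9.20, 10.1 and 12.8 kb before the start (4.04, 4.20 and 3.23) and deleted-only peaks at 7.25 and 15.1 kb (2.57 and 4.37). A peak at 14.3 kb in deleted and 14.6 kb in control cells was shared there, with 4.67 over 977 bases and 4.29 over 490 bases. Elsewhere in the Sox11 window deleted-only peaks lay 14.4 and 31.5 kb downstream (3.02 and 3.50) and 49.1 kb upstream (3.02), and a control-only peak lay 43.2 kb upstream (2.38). At Sox12 the most enriched list-only peak was 11.8 kb upstream in the deleted list (4.37, beside the peaks of Zcchc3) and 39.5 kb upstream among control peaks (4.24, inside 6820408C15Rik).

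Where peaks paired 1 to 1, their median enrichment was much alike. The SoxC windows held 14 such pairs, from 19 shared deleted peaks. Blocks that were split differently in the 2 lists did not enter, among them the main peaks of Sox12 and Zcchc3 and the block upstream of Sox4. The deleted fold enrichment was higher in 8 of the 14 pairs, or 57.1%, against 51.1% of 35969 pairs over the genome. The median of deleted over control was 1.05 against 1.01. Among genome pairs with a mean fold enrichment of at least 5 these values were 60.5% and 1.06. The highest ratio was 1.71, at the Sox12 body peak 2.33 kb from the start, which is above 98.0% of all pairs. The lowest was 0.783, at the weak Sox4 peak 11.2 kb downstream, which is above 14.1%. The main peak of Sox4 had a ratio of 1.23, above 79.1% of pairs, and that of Sox11 0.930, above 36.8%. The deleted peak was the wider one in 10 of 14 pairs, or 71.4%, against 67.6% over the genome. Fold enrichment is not scaled between libraries, so these ratios describe the lists as the caller wrote them.

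**Figure D4:**
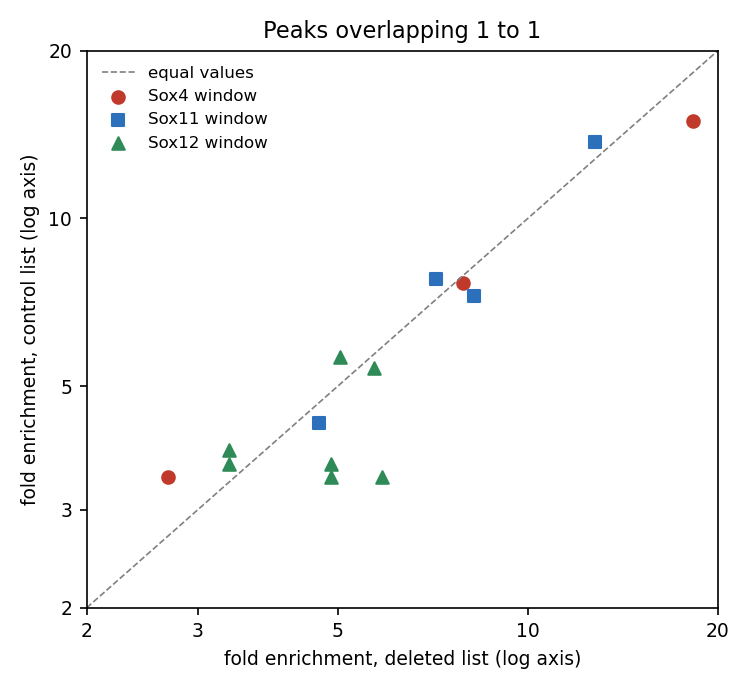
Fold enrichment of the 14 peaks that overlap 1 to 1, with the deleted value on the x axis and the control value on the y axis, both on log axes, with the line of equal values dashed. Points lie near the line, and 3 Sox12 points with control values of 3.43 to 3.63 lie farthest below it.

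Among 19 Sox genes on the chromosomes compared, the SoxC members lay between second and ninth place. Ranked by the strongest peak within 1 kb of the gene, Sox2 came first (20.7 after deletion and 20.6 in controls). Sox4 shared the second place with Sox21 in the deleted list (18.3 each) and was the fourth in the control list (14.9), behind Sox21 (18.6) and Sox6 (15.5). Sox11 was the sixth in both lists, between Sox8 (14.6 and 14.7) and Sox9 (12.6 and 12.5), and Sox12 was the ninth in both, after Sox1 (12 and 11.1). With 1 library per group, neighbours in this order cannot be said to differ. Of the 16 other Sox genes 11 had a peak at the gene in both lists, 1 (Sox7, at 3.19) had one after deletion alone and 4 had none. The median over all 16, with genes lacking a peak entered as 0, was 6.63 in deleted and 7.13 in control cells. In the windows of these 16 genes 387 peaks were found after deletion and 281 in controls. The ratio was 1.38 (1.18 to 1.61), an interval that overlaps that of the SoxC windows and includes the 1.44 of all peaks. In 7 of the 13 with at least 5 control peaks the deleted number was at least 1.5 times the control number. This was so in 33.3% of the 10647 coding-gene windows with at least 5 control peaks, and the difference was not tested. The 7 included Sox1, Sox9 and all 3 SoxD genes.

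**Figure D5:**
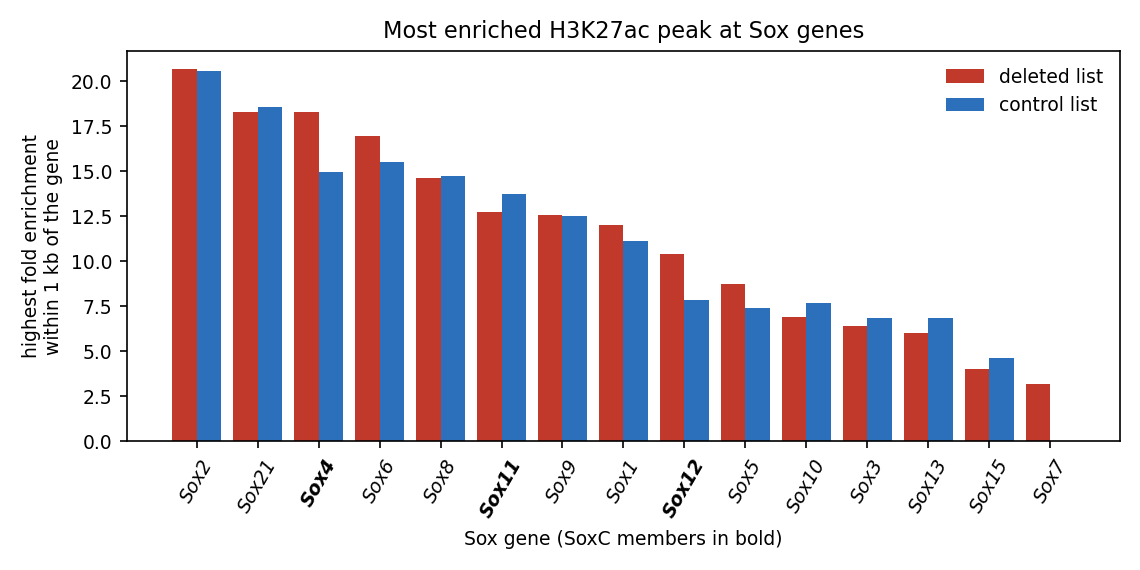
Highest H3K27ac fold enrichment within 1 kb of each Sox gene (y axis) in deleted cells (left bars) and control cells (right bars), for the Sox genes with a peak in either list, ordered by the deleted list. Sox4, Sox11 and Sox12, in bold, hold 18.3, 12.8 and 10.4 in deleted cells and 14.9, 13.7 and 7.87 in control cells.

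Other genes of the neuronal differentiation pathway had peaks about as often as any gene. Of 24 such genes 14 had a peak at the gene in both lists, against 58.0% of all protein-coding genes, 10 had none, and 0 had one in either list alone. Factors that act before or beside SoxC had peaks in both lists at 8 of 10. The highest were the POU factors Pou3f3 (24.3 in deleted and 22.4 in control cells) and Pou3f2 (15.3 and 14.1) and the receptor Notch1 (14.3 and 14.53). Neurog1 and Neurog2, proneural factors, had none. Of 14 genes that are known SoxC targets or follow SoxC in neurons, 6 had peaks in both lists, led by the actin-binding protein Marcks (15.8 and 10.9) and the homeobox factor Prox1 (10.4 and 10.7). The others were the cytoskeletal genes Map2 (8.86 and 9.48) and Stmn1 (7.05 and 5.25), the Hippo pathway factor Tead2 (7.39 and 6.86) and the RNA-binding protein Mex3a (7.89 and 8.88). Tubb3, Dcx and Stmn2, neuron markers like Map2, and the neuronal factors Neurod1, Neurod2, Neurod4, Eomes and Tbr1 had none in either list.

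The labelled cell type was checked by the same count. All 10 neural stem cell markers, such as Nes (12.9 in deleted and 12.9 in control cells), had a peak at the gene in both lists, against the 58.0% of all protein-coding genes. Neuron markers had one in both lists at 1 of 10, fibroblast markers at 1 of 5, microglia markers at 3 of 6, pluripotency markers at 1 of 4 and endothelial markers at 2 of 4. Deleted cells alone had a peak at 1 marker each of neurons (Rbfox3, 2.85), fibroblasts (Pdgfrb, 3.33), microglia (Aif1, 3.02) and endothelium (Cdh5, 2.85), and control cells alone at 0 markers. A peak in a gene is no measure of its RNA.

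Genes with the most similar window were chosen by the distance over 4 log2 values, the peak number and the highest fold enrichment of each list. For Sox4 these were 1110004F10Rik (distance 0.196), Hnrnpa0 and Crebzf (up to 0.223). For Sox11 they were Dcaf1 (0.0375), Mdp1 (0.112) and Tarbp2 (0.122), and for Sox12 Igfbp3 (0.0819), Pigo and Stoml2 (0.106 each, with the same values in their windows). The distances rest on 2 libraries.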

How the data were processed

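H3K27ac ChIP-seq of 1 Smchd1-deleted and 1 control neural stem cell culture, each with its WCE input, was used as deposited peak lists. Per the submitters' processing notes, Bowtie 0.12.9 and mm10 were used. The file headers give MACS2 2.1.0.20140616, run by the authors on each ChIP with the matching input as background. The q-value cut-off was 0.05 per the file headers, which also record that the larger library was down-sampled and that 1 tag per position was retained. The authors' lists give pileup signal, fold enrichment (a ratio to the local background), −log10 p and −log10 q for each peak. Here, overlap of at least 1 base made peaks shared, and intervals were computed with scipy 1.17.1. Gene positions and promoters are from RefSeq on GRCm38.p6. Overlap counting was tested on simulated data. The members and gene lists were chosen with earlier results of these data known. Genes named are the members, their window neighbours, the other Sox genes, a list of 24 neuronal genes and the 3 closest windows for each member. Alternatives were other windows, thresholds, overlaps and list lengths. Separate cultures are not replicated.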

Additional observations from a re-analysis of the deposited data

How the results depend on the processing

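Of 24 alternative values for the summed windows, 21 stayed within the main interval and 3 did not. With 10 kb on each side the deleted-only share was 29.4%. No genome share was computed for that window, and within 5 kb of all coding start sites it was 32.4%. With a fold enrichment of at least 5 in both lists it was 14.3%, and the control-only share was 0%, while over the genome these shares were 26.9% and 19.04%. Fewer and stronger peaks enter these counts by construction. The summed ratio of 1.18 ranged from 0.848 in lists of equal length to 1.29 with peaks less than 500 bases apart merged, which was added after the data were seen, and it was 1.00 with peaks nearest to a member only, also added then. It was below an equal number with 10 kb on each side (0.850) and among peaks enriched at least 5-fold (0.933), while it was 1.05 at −log10 q of at least 5. Over all peaks the ratio was 1.00 in lists of equal length, 1.04 among peaks enriched at least 5-fold and 1.29 at −log10 q of at least 5, against 1.44 as deposited. The direction of the summed count thus depended on the window and on the threshold. Of 120 alternative values for single genes 15 moved. No paired analysis was possible because each group has 1 library and no result comes from a test.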
